A study of Mus musculus with 6 samples.

Results

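Heat shock proteins and J-domain chaperones were followed in the hearts of 3 Tmbim1 KO mice and 3 Flox wild type mice, each on its own Affymetrix array. The members were the genes whose symbols mark the HSP70 and HSP110, small heat shock, HSP90, mitochondrial chaperonin and J-domain (DNAJA, DNAJB and DNAJC) families, with Cryab added, and 71 of the 18029 genes with a single-symbol probe set qualified, through 167 probe sets. Hsf1, Hsp90ab1 and Dnajc19, which the same rule names, were not analysed here. Both groups were of C57BL/6 background and 8 weeks old, and all 6 mice carried an aortic band for 2 weeks, a constriction that makes the heart pump against raised pressure. The labels spell the operation "binding". Per the labels the reference mice were Flox animals called wild type. The labels used here do not say how the Tmbim1 deletion was made, which heart cells carry it or whether the groups were littermates. Hearts without banding were not analysed here, so each difference is one between genotypes in banded hearts.

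Heat shock proteins are molecular chaperones, which bind unfolded or partly folded proteins and keep them from aggregating. HSP70 proteins clamp onto exposed stretches of a client in a cycle of ATP hydrolysis that J-domain proteins start and exchange factors such as HSP110 reset. HSP90 acts later on kinases and steroid receptors, and the small heat shock proteins hold clients without using ATP. In stressed cells the transcription factor HSF1 induces a subset of these genes, and heart muscle carries a large constitutive store of small heat shock proteins that protect its sarcomeres and desmin filaments.

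The members most changed were the inducible HSP70 genes Hspa1b and Hspa1a, so their promoters are given here beside that of Dnajb4, the J-domain gene that also passed the test. The windows run from 250 bases before to 50 bases after the annotated start, in RefSeq's GRCm38.p6 annotation, and are written on the strand of the gene. Capitals mark matches to the heat shock element, the binding sequence of HSF1, searched on both strands as GAANNTTC or TTCNNGAA (a pair of repeat units) and as GAANNTTCNNGAA or TTCNNGAANNTTC, which adds 1 more unit and so overlaps the shorter forms. Hsph1, an HSP110 gene that did not pass, is given because its window holds the longer form, which lies after the start.
Hspa1b promoter, chr17:34959189-34959488, minus strand: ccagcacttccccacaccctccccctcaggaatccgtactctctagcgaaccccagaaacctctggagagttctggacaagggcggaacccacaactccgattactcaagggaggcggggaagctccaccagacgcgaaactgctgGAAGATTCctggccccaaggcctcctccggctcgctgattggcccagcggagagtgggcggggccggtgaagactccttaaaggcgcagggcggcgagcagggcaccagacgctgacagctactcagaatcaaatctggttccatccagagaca
Hspa1a promoter, chr17:34972107-34972406, minus strand: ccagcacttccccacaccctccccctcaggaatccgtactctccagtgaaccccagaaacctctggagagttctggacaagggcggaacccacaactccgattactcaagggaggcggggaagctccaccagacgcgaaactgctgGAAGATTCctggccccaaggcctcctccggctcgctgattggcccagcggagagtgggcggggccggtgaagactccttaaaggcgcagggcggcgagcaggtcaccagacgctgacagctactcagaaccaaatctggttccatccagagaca
Dnajb4 promoter, the downstream of 2 annotated starts, chr3:152193796-152194095, minus strand: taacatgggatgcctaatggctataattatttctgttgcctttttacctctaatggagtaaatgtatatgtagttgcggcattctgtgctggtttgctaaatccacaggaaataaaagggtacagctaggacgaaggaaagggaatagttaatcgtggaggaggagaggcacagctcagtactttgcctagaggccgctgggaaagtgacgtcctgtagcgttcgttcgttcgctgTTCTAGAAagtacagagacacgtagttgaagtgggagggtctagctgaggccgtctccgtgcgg
Hsph1 promoter, 1 of 2 annotated starts, chr5:149636287-149636586, minus strand: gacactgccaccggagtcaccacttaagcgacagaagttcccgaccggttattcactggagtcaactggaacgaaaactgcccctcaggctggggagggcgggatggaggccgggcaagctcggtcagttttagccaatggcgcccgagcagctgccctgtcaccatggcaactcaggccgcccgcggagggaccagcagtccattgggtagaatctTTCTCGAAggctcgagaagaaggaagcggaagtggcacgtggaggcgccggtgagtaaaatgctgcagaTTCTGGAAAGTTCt
The Hspa1a and Hspa1b windows were identical at 296 of 300 positions, so they offer no ground for telling the genes apart. Each holds a single GAAGATTC, which begins 104 bases before the start. The other annotated start of Dnajb4 has no match in its window.

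Hspa1b and Hspa1a encode the stress-inducible cytosolic HSP70, and neighbour each other on chromosome 17. At its brightest probe set Hspa1b had log2 signals of 8.40, 7.38 and 8.55 in the KO hearts, against 5.99, 5.71 and 5.62 in the Flox wild type hearts. Every KO array lay above every wild type array, and KO replicate 2 was the lowest of the KO arrays. The difference, given here as KO minus wild type on the log2 scale, was 2.33 (SE 0.26, 95% interval 1.76 to 2.91, n = 3 mice in each group), or 5.04-fold higher in KO hearts, with a limma adjusted p of 0.00579 over all probe sets. The other 2 probe sets of Hspa1b rose by 2.36 (limma adjusted p = 0.00500) and 2.35 (limma adjusted p = 0.00403), so the 3 agreed in size.

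Hspa1a, with 1 probe set, had signals of 6.36, 5.59 and 7.47 in KO hearts, against 4.43, 4.41 and 3.98 in Flox wild type hearts. Again the groups did not overlap and KO replicate 2 was the lowest KO array, while the KO arrays spread more widely (SD 0.95, n = 3) than the wild type arrays (SD 0.25, n = 3). The rise was 2.20 (SE 0.37, 95% interval 1.38 to 3.03, limma adjusted p = 0.0429), or 4.60-fold. The wild type signals lay near the array medians of 4.24 to 4.28, toward the dim end, where RMA can compress a difference. The 2 genes' transcripts are nearly identical, 1 of the Hspa1b probe sets carries the suffix that Affymetrix gives to probes shared between sequences, and the split of the signal between the genes is uncertain. Without KO replicate 1 or any 1 wild type array Hspa1a lost its call (limma adjusted p = 0.104 to 0.148, differences 2.06 to 2.28), and without KO replicate 3 the rise was 1.70 and passed. Hspa1b kept its call without any single array (2.11 to 2.70, limma adjusted p = 0.000311 to 0.0360). It lost it when KO replicate 1 and wild type replicate 3 were left out together (2.11, limma adjusted p = 0.0927).

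**Figure D1:**
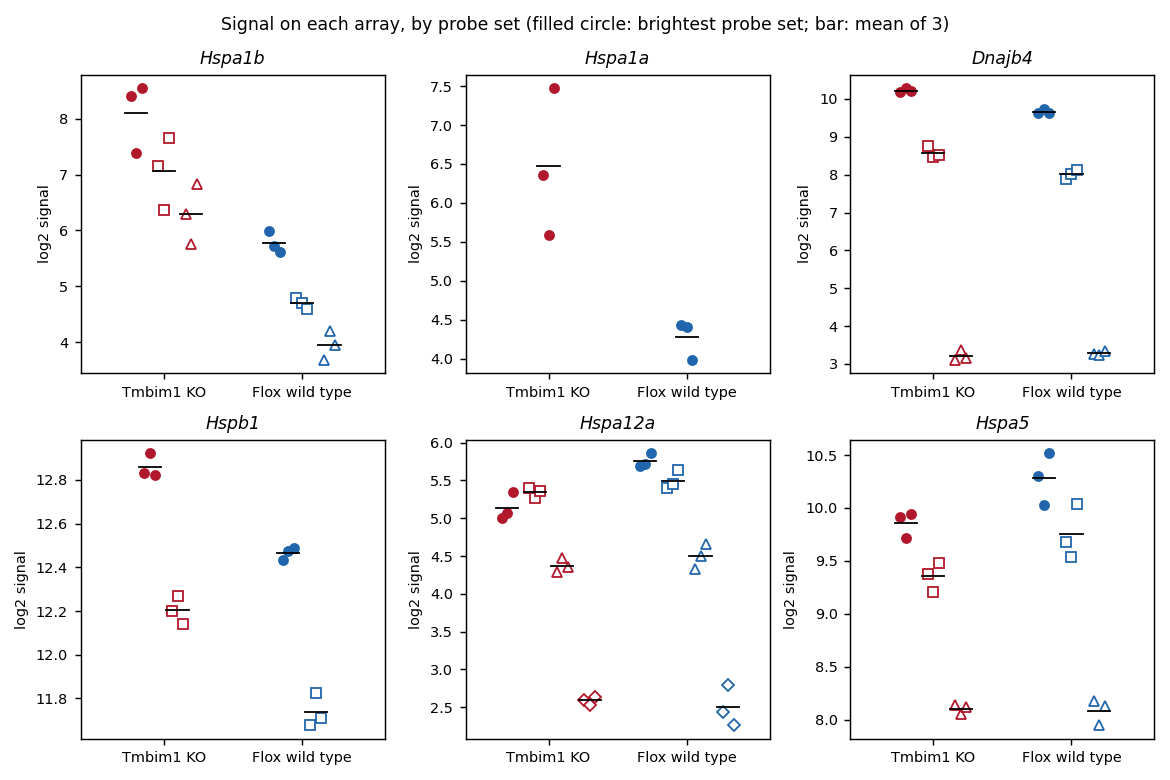
Log2 signal on each array for 6 chaperone genes, with Tmbim1 KO hearts (red) left of Flox wild type hearts (blue), 3 arrays each. Filled circles are the brightest probe set, open symbols the dimmer ones, and black bars group means. For Hspa1b all 3 probe sets separate the groups by 2.33 to 2.36, while the dimmest probe sets of Dnajb4, Hspa12a and Hspa5 do not separate them.

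Over the whole set, 3 of the 71 members rose and 0 fell at their main probe set, the brightest of each gene, in limma at an adjusted p under 0.05. Over all 18029 genes 0.322% rose and 0.227% fell at the same threshold. At an unadjusted p under 0.05, 11 members were higher (15.5%, against 5.19% of all genes) and 4 were lower (5.63%, against 6.33% of all genes). In 17 members all KO arrays lay above all wild type arrays (23.9%, against 7.34% of all genes), and in 8 they lay below (11.3%, against 9.38%). The median difference was 0.05 over the members and -0.002 over all genes, so most members sat near no difference and those that stood out did so mainly upward. Of the 96 dimmer probe sets of the members, 64 had the sign of the gene's brightest one. Of the 68 members that did not pass, all had a 95% interval inside a 2-fold change either way, and 59 inside a 1.5-fold change. No filter on low signal was used, and 6 members, Dnajb3, Dnajb7, Dnajc5b, Dnajc5g, Dnajc6 and Hspb9, lay among the dimmest 40% of probe sets, with differences of -0.04 to 0.13.

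**Figure D2:**
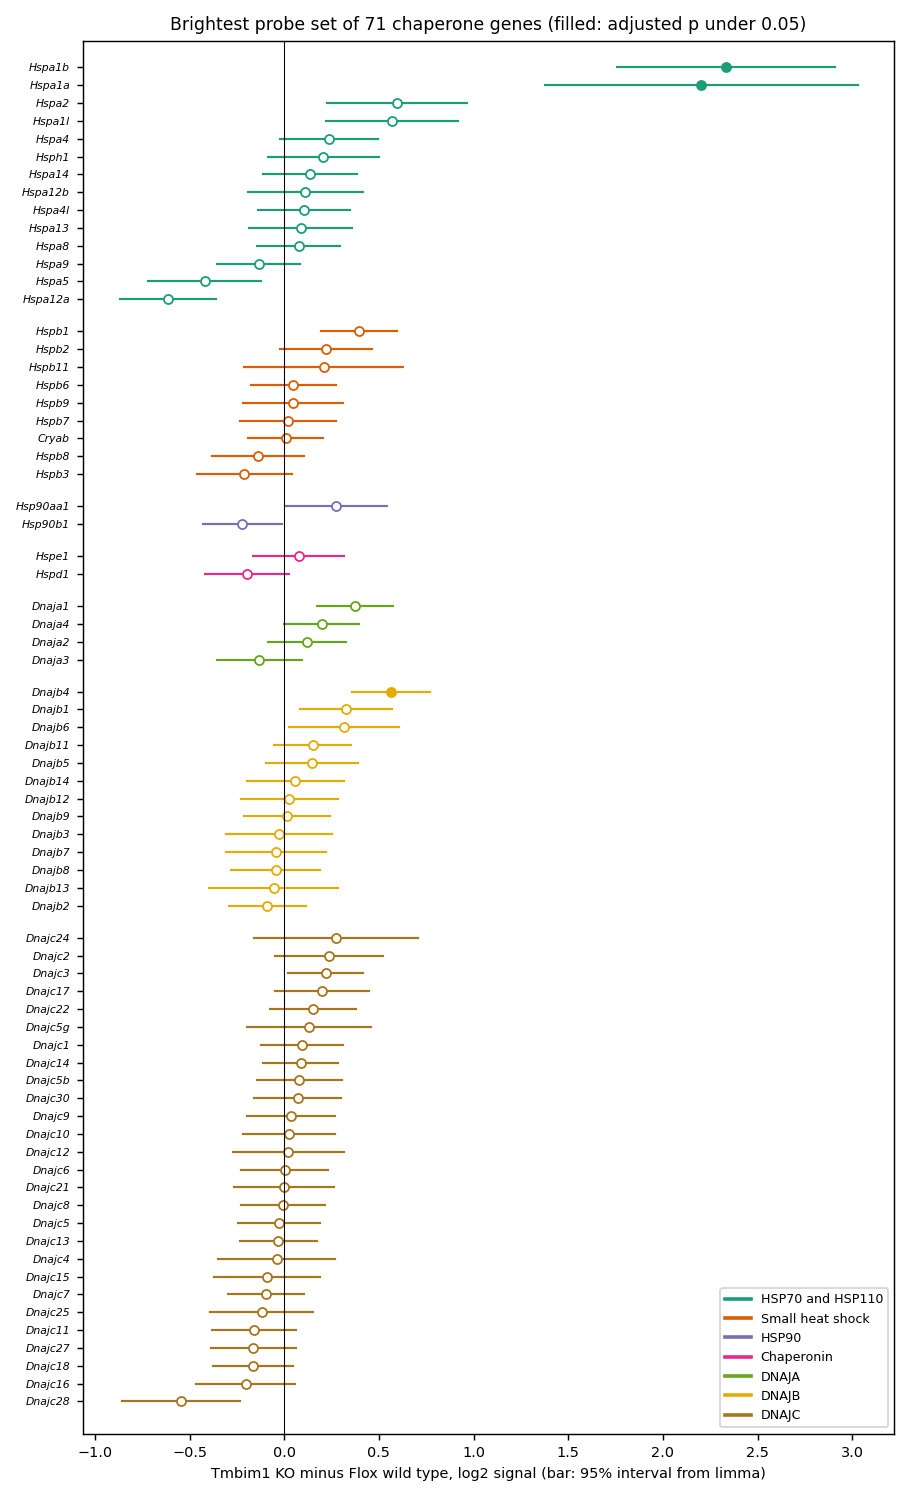
Difference between Tmbim1 KO and Flox wild type hearts in log2 signal (x axis) for the brightest probe set of each of the 71 genes (rows), coloured by family, with the 95% interval from limma as a bar. Filled points passed an adjusted p under 0.05: Hspa1b (2.33), Hspa1a (2.20) and Dnajb4 (0.56).

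Within the HSP70 and HSP110 family, 2 of 14 members rose, 0 fell and 12 did not pass, with a median difference of 0.12. Leaving out wild type replicate 3 gave a median of 0.08, and leaving out wild type replicate 2 gave 0.21. Hspa8, the constitutive HSP70 of the cytosol that also strips clathrin from vesicles, had signals of 12.08, 12.01 and 12.13 in KO hearts, against 12.11, 11.92 and 11.95 in wild type hearts. The groups overlapped, and the difference of 0.08 had a 95% interval of -0.14 to 0.29 (limma adjusted p = 0.865), which leaves out the size seen for its inducible relatives. This probe set carries an Affymetrix suffix for shared probes. It also lies toward the top of the scale, where differences can be compressed. Hspa1l, an HSP70 gene known from testis that adjoins Hspa1a on chromosome 17, was at 0.57 (95% interval 0.22 to 0.92, limma adjusted p = 0.193), with no overlap between groups. Hspa2, another HSP70 known from male germ cells, was at 0.60 (limma adjusted p = 0.200), with 5.27, 5.10 and 5.21 in KO hearts, against 4.83, 4.79 and 4.17 in wild type hearts. Without wild type replicate 3, the lowest of these, its difference was 0.38.

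Among the HSP110 genes, which act as exchange factors for HSP70, Hspa4 was at 0.24 (limma adjusted p = 0.530), Hsph1 at 0.21 (limma adjusted p = 0.662) and Hspa4l at 0.10. Their dimmer probe sets ran from -0.08 to 0.28 for Hspa4 and from -0.06 to 0.0014 for Hspa4l, all with overlapping groups. The lowest value of the family belonged to Hspa12a, an atypical HSP70 with a divergent ATPase domain. It had signals of 5.01, 5.07 and 5.35 in KO hearts, against 5.69, 5.72 and 5.86 in wild type hearts. The groups did not overlap, but the difference of -0.61 (SE 0.11, 95% interval -0.87 to -0.36) missed the threshold (limma adjusted p = 0.0641). Its 3 dimmer probe sets were at -0.15, -0.13 and 0.09. The remaining members, Hspa12b, Hspa13, Hspa14 and the mitochondrial Hspa9, lay between -0.14 and 0.14.

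In the J-domain families, 1 of 44 members rose, 0 fell and 43 did not pass. The one that rose was Dnajb4, a cytosolic partner of HSP70. It had signals of 10.18, 10.29 and 10.20 in KO hearts, against 9.62, 9.73 and 9.63 in wild type hearts, each group lying within a narrow range. The rise of 0.56 (SE 0.09, 95% interval 0.36 to 0.77, limma adjusted p = 0.0405) equals 1.48-fold. A second probe set was at 0.58 (limma adjusted p = 0.0725), and the remaining, much dimmer one was at -0.07. Its size was 0.53 to 0.60 without any single array, but each time the call was lost (limma adjusted p = 0.0849 to 0.182). It was also lost for the mean of its 3 probe sets (0.36, limma adjusted p = 0.0990).

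Its relative Dnajb1, the inducible J-domain partner of HSP70, had signals of 7.38, 7.47 and 7.31 in KO hearts, against 7.08, 6.89 and 7.21 in wild type hearts. Every KO array was the higher, and the difference of 0.33 (95% interval 0.08 to 0.57) did not pass (limma adjusted p = 0.298). Dnajb6, a suppressor of protein aggregation whose mutations cause a muscular dystrophy in people, was at 0.32 (limma adjusted p = 0.424), with 8.15, 8.24 and 8.17 in KO hearts, against 7.90, 8.11 and 7.60 in wild type hearts. Its difference was 0.18 without wild type replicate 3. A second probe set of Dnajb6, nearly as bright, was at -0.04 with overlapping groups, and the others were at 0.32 and 0.10, also overlapping. Dnajb11 and Dnajb9, both of the endoplasmic reticulum, were at 0.15 and 0.02, and Dnajb5 was at 0.15. The 7 other DNAJB members lay between -0.09 and 0.06.

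Of the 4 DNAJA members, 0 passed in limma and 1 was higher at an unadjusted p under 0.05, as were 5.19% of all genes. That member was Dnaja1, a cytosolic J-domain protein of the constitutive HSP70 system, with 9.43, 9.49 and 9.50 in KO hearts, against 9.06, 9.16 and 9.09 in wild type hearts. The groups were well apart, the difference was 0.37 (SE 0.09, 95% interval 0.17 to 0.57, limma adjusted p = 0.150), and its 2 dimmer probe sets were at 0.28 and 0.29. Dnaja4 was at 0.20 and Dnaja2 at 0.12, both without overlap between groups, but the dimmer probe sets of Dnaja2 were at 0.22, -0.03 and -0.15 with overlap. Dnaja3, which works inside mitochondria, was at -0.13.

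The 27 DNAJC members, which share little beyond the J-domain, had a median difference of 0.0032 (-0.01 to 0.03 without any single array). In limma 0 were called and 2 had an unadjusted p under 0.05, 1 higher and 1 lower. The shares over all genes were 5.19% higher and 6.33% lower. Dnajc28 was the lowest, with 6.88, 7.11 and 7.08 in KO hearts, against 7.32, 7.53 and 7.85 in wild type hearts. No KO array reached a wild type array, at a difference of -0.54 (SE 0.14, 95% interval -0.86 to -0.23, limma adjusted p = 0.171), and its second probe set was at -0.32. Dnajc3, an endoplasmic reticulum protein known as an inhibitor of eIF2-alpha kinases, was at 0.22 (limma adjusted p = 0.411). Its dimmer probe sets were at 0.20, 0.06, 0.0046 and -0.01, all with overlapping groups. Dnajc2, which sits on ribosomes and helps nascent chains to fold, was at 0.24, Dnajc17 at 0.20 and Dnajc16 at -0.20. Dimmer probe sets were at 0.48, 0.27 and 0.0012 for Dnajc2, at -0.13 and -0.10 for Dnajc17 and at -0.17 for Dnajc16. Without wild type replicate 3 Dnajc2 was at 0.13 and Dnajc16 at -0.13, without KO replicate 2 Dnajc2 was at 0.14, and without wild type replicate 2 Dnajc17 was at 0.12. Dnajc8, associated with the spliceosome, was at -0.01 and Dnajc15, of the mitochondrial inner membrane, at -0.09. The 20 other members lay between -0.16 and 0.27.

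Of the 9 small heat shock genes 0 passed in limma and 1 was higher at an unadjusted p under 0.05, as were 5.19% of all genes. The median difference was 0.05. That median was -0.009 to 0.09 without any single array, negative without KO replicate 3 and highest without wild type replicate 1. Hspb1, which encodes the small heat shock protein that binds actin filaments, had signals of 12.83, 12.92 and 12.82 in KO hearts, against 12.43, 12.48 and 12.49 in wild type hearts. The separation was wide relative to the spread (SD 0.05 and 0.03, n = 3 each), but the difference of 0.39 (SE 0.09, 95% interval 0.19 to 0.60) missed the threshold (limma adjusted p = 0.128), as did that of its second probe set (0.47, limma adjusted p = 0.0901). Both lie toward the top of the scale, where differences can be compressed.

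The other small heat shock genes of muscle had differences between -0.21 and 0.22. Cryab, which encodes alphaB-crystallin, the chaperone of desmin, had 12.58, 12.55 and 12.63 in KO hearts, against 12.55, 12.59 and 12.59 in wild type hearts. The groups were interleaved, and the interval of the difference (0.01) ran from -0.19 to 0.21. Hspb6, a partner of contractile proteins, was at 0.05 (95% interval -0.18 to 0.27), and Hspb7, a cardiac and skeletal muscle member, at 0.02 (95% interval -0.23 to 0.28), with 0.39 and 0.12 at its 2 dimmer probe sets, whose groups overlapped. Like Hspb1, the brightest probe sets of Cryab, Hspb6 and Hspb7 lie toward the top of the scale, where differences can be compressed. Hspb8, which works with Bag3 in the autophagy of damaged proteins, was at -0.14 (limma adjusted p = 0.744), with 0.02 and -0.13 at its dimmer probe sets. Hspb2, a muscle protein whose gene overlaps that of Cryab on chromosome 9 in the RefSeq table, was at 0.22 (limma adjusted p = 0.534), and its muscle partner Hspb3 at -0.21 (limma adjusted p = 0.575). Hspb2 was at 0.14 without KO replicate 2, and Hspb3 at -0.13 without wild type replicate 2. Hspb11, now known as a subunit of intraflagellar transport, was at 0.21 and Hspb9 at 0.05. The difference of Hspb11 was 0.03 without KO replicate 2. It was 0.07 when wild type replicate 3 was left out, and 0.40 when wild type replicate 2 was. The array cannot show whether strands of the overlapping Cryab and Hspb2 genes share signal.

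The pair of HSP90 genes measured stood on opposite sides of 0, without passing in limma. Hsp90aa1, the stress-inducible cytosolic HSP90, had 10.46, 10.62 and 10.49 in KO hearts, against 10.40, 10.34 and 10.01 in wild type hearts. Its difference of 0.27 (95% interval 0.00 to 0.54, limma adjusted p = 0.466) was accompanied by 0.44 and 0.49 at 2 dimmer probe sets, and by 0.04 at a very dim one. Without wild type replicate 3 the difference was 0.15. Hsp90b1, the HSP90 of the endoplasmic reticulum, had 9.72, 9.64 and 9.80 in KO hearts, against 9.96, 9.91 and 9.95 in wild type hearts, a difference of -0.22 (95% interval -0.43 to -0.01, limma adjusted p = 0.434). The groups did not overlap for either gene's brightest probe set. The second probe set of Hsp90b1 was at -0.05 with overlapping groups. Of the mitochondrial chaperonin genes, which lie head to head on chromosome 1, Hspd1 (HSP60) was at -0.20 and its lid Hspe1 (HSP10) at 0.08, both short of the threshold (limma adjusted p = 0.539 and 0.885).

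The members were also sorted into 4 lists, drawn up with earlier results of these data known. Some genes belong to more than 1 list, and no test of a list was made. The first holds 12 selected cytosolic genes, many of them stress-inducible, from the HSP70, HSP110, HSP90 and J-domain families with Hspb1 and Cryab. In it 12 differences were positive with a median of 0.30, 3 rose and 7 had an unadjusted p under 0.05. It does not cover all cytosolic members, and Hspa12a (-0.61), Dnajc7 (-0.10) and Dnajb2 (-0.09), which are outside it, had negative differences. Of the muscle small heat shock genes outside it, Hspb3 (-0.21) and Hspb8 (-0.14) were negative, and Hspb2 (0.22), Hspb6 (0.05) and Hspb7 (0.02) positive. In the list of 9 mitochondrial members, 7 were negative with a median of -0.13, and 0 passed in limma, with 1 at an unadjusted p under 0.05. The list of 14 members of the endoplasmic reticulum had a median of 0.03, with 9 positive, 0 past the threshold in limma and 3 at an unadjusted p under 0.05. The 7 small heat shock genes of muscle, Hspb1 among them, had a median of 0.02, with 5 positive. Over all 18029 genes the median was -0.002 and 8907 differences were positive. In limma 0.322% of all genes rose and 0.227% fell at the adjusted threshold. At an unadjusted p under 0.05 in limma, 5.19% of all genes were higher and 6.33% lower.

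**Figure D3:**
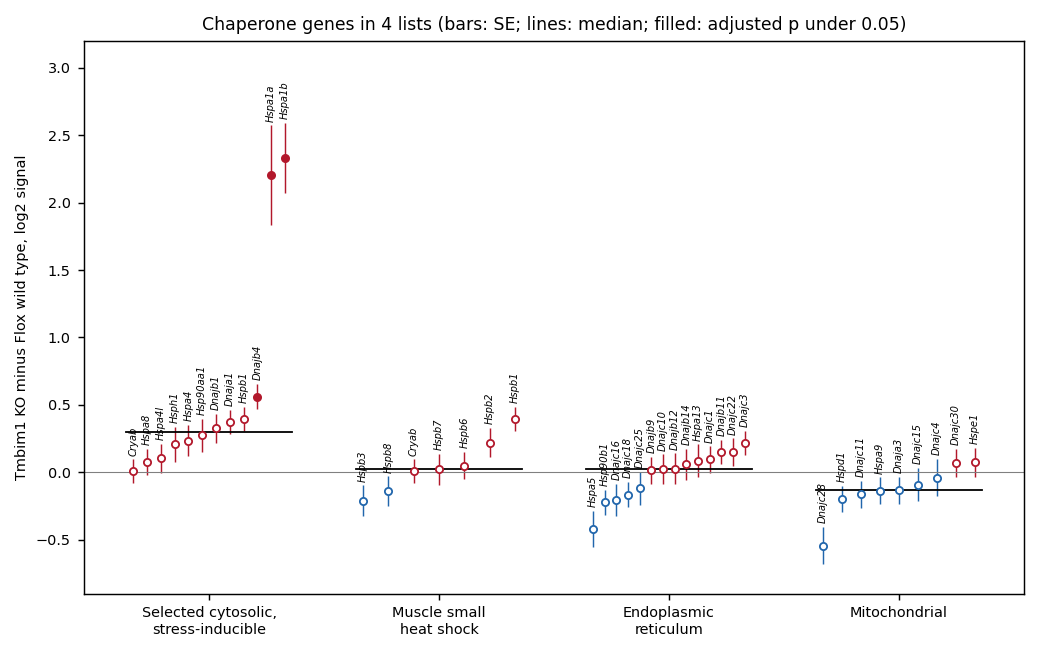
Difference between Tmbim1 KO and Flox wild type hearts in log2 signal (y axis) for chaperone genes in 4 lists, with SE bars, red above and blue below 0, and black lines at the group medians of 0.30, 0.02, 0.03 and -0.13. Filled points passed an adjusted p under 0.05, and Cryab and Hspb1 appear in both the first and the second group.

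Hspa5 is the HSP70 of the endoplasmic reticulum, known as BiP, and the standard marker of the unfolded protein response. It had signals of 9.91, 9.72 and 9.95 in KO hearts, against 10.30, 10.03 and 10.52 in wild type hearts. The KO arrays were all lower, but the difference of -0.42 (SE 0.13, 95% interval -0.72 to -0.12) did not pass (limma adjusted p = 0.265). Its other 2 probe sets were at -0.40 and 0.02. The Hspa5 promoter is shown because it carries the endoplasmic reticulum stress element, searched on both strands as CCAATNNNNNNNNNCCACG and given here in capitals.
Hspa5 promoter, chr2:34771840-34772139, plus strand: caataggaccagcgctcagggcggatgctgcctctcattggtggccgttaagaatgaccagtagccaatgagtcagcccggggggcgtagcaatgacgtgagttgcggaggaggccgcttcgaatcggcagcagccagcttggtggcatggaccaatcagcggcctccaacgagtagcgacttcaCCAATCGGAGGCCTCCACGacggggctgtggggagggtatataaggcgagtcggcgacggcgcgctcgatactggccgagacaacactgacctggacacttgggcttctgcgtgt
That element begins 65 bases before the start. It was found in the windows of 3 of the 57 members with a promoter sequence (5.26%), against 0.137% of all 27025 genes with one. The 3 were Hspa5, Hsp90b1 (-0.22) and Dnajc3 (0.22), each with a dimmer probe set between -0.05 and 0.02.

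The heat shock element in its shorter form was found in 16 of those 57 members (28.1%), against 17% of all genes. The longer form was in 4, Hsph1, Dnajb6, Hspd1 and Hspe1 (7.02%, against 0.662% of all genes). The 3 genes that rose were among the 16. Of these, Hspa1a and Hspa1b have nearly identical windows and an uncertain split of signal, so they are not separate cases. Differences of the 16 ran from -0.21 to 2.33 with a median of 0.16. Those of the 41 members without a match ran from -0.61 to 0.60 with a median of 0.02. An unadjusted p under 0.05 in limma was seen in 6 of the 16 and in 8 of the 41, against 2078 of the 18029 genes measured. Hspb1, with 2 matches, and Dnaja1 were also among the 16, and Dnajb1 was not. Hspb3 (-0.21), Hspd1 (-0.20), Dnajc27 (-0.16) and Hspb8 (-0.14) were among the 16 with negative differences. In all, 12 of the 16 and 23 of the 41 were positive. The 4 genes with the longer form lay between -0.20 and 0.32, and Hspd1 and Hspe1 share 1 stretch of matches between their starts. A match is a description of the letters in these windows, and elements farther away were not searched.

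The partners of these chaperones were followed in 4 lists drawn up with earlier results known, and 0 of their measured members passed in limma. Of 13 exchange factors and cofactors of HSP70, 0 had an unadjusted p under 0.05 and the median was -0.02. Sil1, an exchange factor of the endoplasmic reticulum, was at -0.19, Bag5 at 0.17 and St13, which stabilises HSP70 bound to ADP, at 0.16. Of 17 HSP90 cochaperones 2 had an unadjusted p under 0.05 and the median was -0.09. Those 2 were 1 higher and 1 lower, against 5.19% and 6.33% of all genes in limma. Fkbp4, an immunophilin that helps HSP90 to mature steroid receptors, had the largest difference of the 4 lists in size at -0.57 (SE 0.15, 95% interval -0.90 to -0.24, limma adjusted p = 0.171). Sugt1 was at 0.34 (limma adjusted p = 0.384) and the phosphatase Ppp5c at -0.23 (limma adjusted p = 0.502). The dimmer probe sets of Ppp5c were at -0.32 and -0.25. That of Sugt1 was at -0.08 with overlapping groups. That of Fkbp4, among the dimmest 40% of probe sets, was at -0.02. Without KO replicate 2 Ppp5c was at -0.15 and St13 at 0.09.

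The chaperonin of the cytosol, CCT, and its feeder prefoldin had 15 measured subunits with a median of 0.05 and 0 at an unadjusted p under 0.05 in limma, with Cct8 at 0.24, Pfdn4 at 0.25 and Pfdn1 at 0.18. Without single arrays these ran from 0.11 (without wild type replicate 3) to 0.34 for Cct8, from 0.10 to 0.43 for Pfdn4 and from 0.07 to 0.35 for Pfdn1, the last 2 lowest without wild type replicate 1. All 3 were highest without wild type replicate 2. Of 5 measured genes of the HSF family and its binding partners, 0 had an unadjusted p under 0.05 in limma. Hsf2 was at -0.17, Hsf5 at -0.09 and Hsf4 at 0.09, with mean signals of 3.11, 2.55 and 3.71, toward the dim end of the arrays. Hsf2 was at -0.27 when wild type replicate 2 was left out, and at -0.10 when wild type replicate 3 was.

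Tmbim1 itself had 7.53, 7.49 and 7.56 in KO hearts, against 8.58, 8.38 and 8.33 in Flox wild type hearts, a difference of -0.91 (limma adjusted p = 0.00579). Without KO replicate 2 its adjusted p in limma was 0.0512. All 8 cardiomyocyte markers were bright on every array. Their mean level was 12.82 to 12.87 in KO hearts, against 12.95 to 13.04 in wild type hearts. The atrial markers averaged 12.95 on KO replicate 1, 5.94 and 6.26 on the other KO arrays, and 5.72 to 5.97 in wild type hearts. These averages include Nppa, which was bright on every array (11.85 to 13.78) and rose in KO hearts (1.19, limma adjusted p = 0.0496). On KO replicate 1 Myl7 was at 12.86 and Sln at 12.17, against 3.45 to 3.90 and 2.42 to 2.77 on the other arrays. Whether KO replicate 1 held more atrial tissue was not tested. Wild type replicate 3 lay apart from the rest on the first principal component. Without KO replicate 1 the rise of Hspa1b was 2.19 (limma adjusted p = 0.0282) and that of Dnajb4 0.58 (limma adjusted p = 0.142).

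Several marker lists of other cells and of handling had mostly positive differences between the same groups. Of 8 cardiomyocyte markers 0 were positive, and of 5 endothelial markers 1 was. All 14 immediate early genes, which respond within minutes to stress and handling, were positive and 4 rose. Their mean level was 6.98 to 7.36 in KO hearts, against 5.98 to 6.45 in wild type hearts. Over all 18029 genes 8907 were positive and 0.322% rose. The 7 macrophage markers, all with positive differences, averaged 7.61 to 7.80 in KO hearts, against 7.14 to 7.60 in wild type hearts. The 6 fibroblast markers, 5 of them positive, averaged 9.35 to 9.47 in KO hearts, against 8.69 to 9.28, and the 3 neutrophil markers measured, 2 of them positive, averaged 4.86 to 5.32 in KO hearts, against 4.18 to 4.62. None of these 3 lists had a member past the threshold in limma, and none had a member among the dimmest 40% of probe sets. Smooth muscle markers averaged 6.54 to 7.96 in KO hearts, against 6.33 to 6.67, endothelial markers 7.71 to 7.93, against 7.88 to 7.95, red blood cell markers 4.55 to 4.65, against 4.13 to 4.63, and skeletal muscle markers 5.11 to 5.48, against 5.04 to 5.26. Among the dimmest 40% of probe sets lay 3 of the 4 skeletal muscle markers and 1 of the 2 red blood cell markers. The remaining skeletal muscle marker, Acta1, had a mean signal of 13.45. The part of handling or of a change in the mix of cells in the chaperone differences was not tested. In RNA from mixed heart cells, fewer cells of a type and less RNA per cell cannot be told apart.

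**Figure D4:**
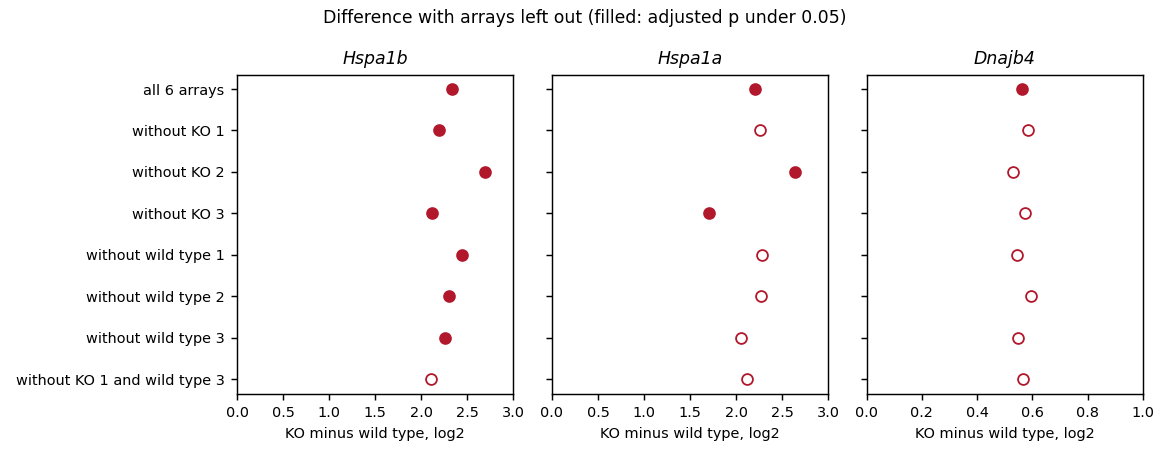
Difference between Tmbim1 KO and Flox wild type hearts in log2 signal (x axis, from 0) for the 3 genes that rose, with all 6 arrays and with arrays left out (rows). Filled points passed an adjusted p under 0.05: Hspa1b did so in every row but the last, and Dnajb4 only with all 6 arrays.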

How the data were processed

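Heart RNA of 6 mice (400 ng of total RNA each) was measured on Affymetrix arrays, with 1 array per mouse. The authors deposited a log2 signal for each probe set, with arrays on a closely shared distribution. The submitters' processing notes name RMA and limma. Their settings are not stated in the labels. RMA equalises the arrays, so an overall shift between groups would be removed. The 13 control probe sets were left out, and 38195 were tested. Through the platform annotation 34325 had a single symbol, 62 had more than 1 and 3808 had no symbol. The RefSeq gene table updated 0 symbols. Each gene was represented by its brightest probe set over the 6 arrays, and signals of different probe sets were not compared as levels.

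The genotypes were set against each other in limma 3.58.1 under R 4.3.3 (lmFit and eBayes, two-sided), with Benjamini-Hochberg adjustment over all 38195 probe sets at 0.05. In all, 91 probe sets were higher and 70 lower. The fit was tested on simulated data beforehand. There it called 3 of 50 changes of 0.5 on the log2 scale, 92 of 100 of 1 and 50 of 50 of 2. It made 5 false calls. Precision is set by having 3 arrays a group.

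Named genes were Tmbim1, members past the threshold, the 5 of smallest p and the 2 brightest of each family, and the 3 of smallest p in each partner list. Other members are named with their values to complete a family. The members and lists were chosen with earlier results of these data known. Alternatives were a replicate block, trended and robust priors, array weights, median centring, quantile normalization applied again, a filter on the dimmest 40% of probe sets, 1 probe set per gene, the mean of a gene's probe sets, and arrays left out.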

Additional observations from a re-analysis of the deposited data

How the results depend on the processing

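Of 47 genes named, 41 kept their direction in every alternative run for them (at most 16 each). The number of members past the threshold was 3 in the main fit on all arrays. It was 1 with the replicate block, 1 for the mean of each gene's probe sets and 1 to 2 without any single array. With the robust prior and with array weights it was 2 each, on all 6 arrays. In limma it was 0 without both KO replicate 1 and wild type replicate 3 (10 at an unadjusted p under 0.05, against 15 in the main fit). The member median was 0.04 to 0.07 without any single array. The count over all probe sets was 161, against 102 with 1 probe set per gene, where fewer were tested, 29 without both of those arrays and 38 to 86 without any single array. Hspa1b, with its call in 15 of 16 alternatives, lost it in the fit on 4 arrays, while Hspa1a and Dnajb4 kept theirs in 7 of 16 each. The other 6 changed sign in some setting, 5 of them from differences under 0.1 in size and Dnajc17 from 0.20. Dnajc15 was at 0.0510 without both of those arrays, and Dnajc17 at -0.0092 and Dnajc8 at 0.0059 for the mean of probe sets. Without single arrays the range was -0.0154 to 0.0261 for Cryab, -0.0348 to 0.0712 for Dnajb9, -0.195 to 0.0009 for Dnajc15, -0.0604 to 0.0381 for Dnajc8 and -0.0491 to 0.216 for Hsf4. The cause of these changes was not tested, beyond the fewer arrays or probe sets used. Same-numbered KO and wild type arrays deviated from their group means with correlations of 0.06, 0.14 and 0.02, so the numbers were not taken as pairs. With the replicate block the adjusted p in limma was 0.00937 for Hspa1b and 0.0612 for both Hspa1a and Dnajb4, and 168 probe sets passed. With 3 arrays in each group, members short of the threshold are not shown to be alike in both groups.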
